A study of Mus musculus with 10 samples.

Results

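The loci described here are stretches of transcript that the authors assembled from their reads in cultured mouse bone-forming cells and that carry a running number in place of a gene name. They were selected by 3 criteria: an identifier of a newly assembled locus, no Gene Ontology term for DNA integration or virion assembly, and counts that sum to 100 or more over 8 libraries. Of the 29583 rows of the table, 7547 were newly assembled loci and 22036 were Ensembl genes; 1975 loci met the criteria. Another 108 loci were set aside for the integration and virion terms and 5464 for their low counts. Each locus is written here by its number, so that locus 8561 is Mus_musculus_newGene_8561 of the table. Their genome positions were not analysed here.

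MC3T3-E1 cells, an established line of osteoblast precursors from newborn mouse skull, were grown in standard medium that held β-ecdysterone, an ecdysteroid found in plants, at 0, 100, 150 or 200 μM. Libraries of oligo(dT)-selected mRNA were made on day 5 and day 10. All 10 libraries came from this line; the labels give the strain as C57BL/6, the age as newborn and the source as bone marrow mesenchymal stem cells. There was 1 library for each dose and day, so that the 6 treated libraries (3 doses on each of 2 days) were compared with 2 libraries at 0 μM, and although the protocol gives n = 3 for the extraction, no source says whether a library pools 3 cultures or whether the doses came from separate ones; p-values then measure the spread between these libraries. A further 2 libraries, A-5 and B-4, are labelled untreated with no day and were kept apart.

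Mammalian genomes are transcribed well beyond their protein-coding genes. Long noncoding RNAs, processed pseudogenes and copies of transposable elements all yield polyadenylated RNA that an assembler can join into loci. Among the transposable elements of the mouse, LINE-1 copies encode ORF1, an RNA-binding protein, and ORF2, an endonuclease and reverse transcriptase. Endogenous retroviruses are remnants of infections of the germ line and keep gag, pol and env genes to varying degrees. Cells hold these copies down by DNA methylation and by histone marks set through the TRIM28 and SETDB1 complex and the HUSH complex.

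The loci were sorted by the text of the best hit the authors recorded in the NR protein database. No hit was recorded for 1339 of the 1975 loci (67.8%), and 1327 had no text in any of the 9 annotation columns. A mouse protein was the best hit for 452 loci (22.9%), a retroelement protein for 44 (2.23%) and a protein of another organism, such as the rat, for 140 (7.09%). Of the mouse hits, 342 were to proteins without a descriptive name, such as the 241 predicted proteins with an mCG number, and 110 had a descriptive name. Of the 44 retroelement hits, 34 named LINE-1 or its ORF2. Retroelement text in the NR, Swiss-Prot or Pfam column was present for 87 loci.

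What the remaining rows hold bears on what the unnamed loci may be. Of the 22036 Ensembl identifiers, 22022 were found in the GENCODE M21 annotation, and 21914 of them are protein-coding there while 2 are lincRNAs. GENCODE M21 lists 5854 lincRNA genes. None of 12 well-known long noncoding RNAs, among them Malat1, Neat1 and H19, is a row of the table. How many of the unnamed loci lie in annotated noncoding genes was not tested.

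The loci were shorter than annotated genes. Counts divided by FPKM and library total give the length that the authors' FPKM implies, and on 14914 Ensembl genes this fell within 10% of the longest GENCODE transcript for 73.2%. By this measure the loci had a median length of 2000 bases, with quartiles of 1339 and 3188, against a median of 2986 bases for Ensembl genes. The medians were 1966 bases for loci without a protein hit, 2094 for mouse hits, 2718 for retroelement hits and 1873 for other organisms. A few were long: locus 8682, without a protein hit, came to 24594 bases, and locus 8401, with a LINE-1 ORF2 hit, to 10946.

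Most loci were sparsely expressed and a handful held most of the signal. The median total over the 8 libraries was 369 counts, 1763 loci had counts in all 8 libraries, and 1170 had at least 10 counts in each. The top 3 (loci 2902, 2327 and 2330, none with a protein hit) held 46.1%. Per length, locus 2902 was the highest of these, with a mean of 4015 FPKM over the 8 libraries, against 434 FPKM for locus 2330 and 344 FPKM for locus 2327. At the limit of 100 counts, loci 10983 and 1147 had exactly 100, and loci 11637 and 2395 were left out with 99. Locus 10983 had 0 counts in both libraries at 0 μM and 29, 18, 4, 30 and 19 counts in 5 of the treated libraries, whereas the counts of locus 11637 ranged from 5 to 36 over the 8 libraries. The total adds 6 treated libraries to 2 at 0 μM, so a locus with counts mainly in treated cells reached 100 more readily than one with counts mainly at 0 μM.

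The library totals ranged from 2.71e+07 to 5.82e+07 counts over the 8 libraries, and a count of 0 allows up to 3 counts, or 0.0495 to 0.117 CPM (counts scaled to a common TMM-normalized library size); such limits cover counting error only. The loci took 1.70% of all counts at 0 μM on day 5 and 1.48% on day 10. In treated cells they took 2.06 ± 0.221% (SD, n = 6), with the lowest library at 1.78% and the highest at 2.31%, so that all 6 lay above both libraries at 0 μM. Libraries A-5 and B-4, although untreated, stood at 2.04% and 2.58%, inside and above the treated range. Without the top 3 loci the share was 1.10 ± 0.0658% (SD, n = 6) in treated cells against 0.993% and 0.934% at 0 μM. Retroelement hits took 0.0234 ± 0.00196% (SD, n = 6) in treated cells against 0.0174% and 0.0182% at 0 μM, and mouse protein hits 0.382 ± 0.0246% (SD, n = 6) against 0.337% and 0.324%.

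Among markers of the cell type, Runx2 and Sp7, transcription factors of the osteoblast lineage, and Col1a1, the main bone collagen, were all expressed, with treated means of 220.5, 80.7 and 9335 CPM. Of 8 osteoblast genes 4 were called up by the limits given below (Runx2, Sp7, Alpl and Ibsp) and none down; Spp1, the matrix protein osteopontin, went from a mean of 1710 CPM at 0 μM to 1215 CPM, a log2 fold change of -0.56 with an edgeR adjusted p = 0.032 that stayed under the fold limit. The 5 macrophage markers summed to between 1.16 and 1.86 CPM in treated libraries and 1.76 to 2.05 CPM at 0 μM, with Ptprc and Adgre1 at 0 counts in both libraries at 0 μM. Sums of the adipocyte, muscle and endothelial markers lay higher in treated libraries than at 0 μM. They ran from 2.62 to 5.62, 3.75 to 7.89 and 2.03 to 2.61 CPM in treated libraries. At 0 μM they reached at most 2.13, 2.19 and 0.754 CPM, with Kdr and Adipoq at 0 counts. Of the genes with enough counts to be tested, 1 of 4, 1 of 2 and 2 of 3 were called up. Over all genes and loci tested, 13.4% were called up. The part of other cell types in the results on the loci was not tested. In such bulk RNA, more cells of a type and more RNA per cell cannot be told apart.

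To ask which loci changed with β-ecdysterone, the 6 treated libraries were set against the 2 at 0 μM in edgeR (quasi-likelihood, day in the model) across 16794 genes and loci that passed the filter on low counts. Calls needed a change of more than 1 on the log2 scale together with an adjusted p (Benjamini-Hochberg) below 0.05. Of the 1974 loci tested, 596 (30.2%) were called up and 89 (4.51%) down; the remaining 1289 were not called. Over all features tested, 13.4% were called up and 5.98% down. The median log2 fold change was 0.58 over the loci and 0.05 over all features. Of the called loci, 587 of 596 were higher than the same-day library at 0 μM in all 6 treated libraries, and 86 of 89 were lower in all 6; over all features these were 2168 of 2254 and 995 of 1005. In 813 loci (41.2%) the 6 treated libraries all lay above both at 0 μM, against 27% of all features, and in 192 (9.73%) they all lay below, against 25.7%.

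Low counts move with this result, and the rule that chose the loci favours loci high in treated cells, so the shares are a description. Among features with totals from 100 to under 300 counts, 30.3% of 859 loci and 27.6% of 1246 Ensembl genes were called up. In the next range, from 300 to under 1000, the shares were 35.7% of 607 loci and 24.6% of 1042 genes. From 1000 to under 10000 counts they were 24.2% of 438 loci and 6.71% of 4622 genes, and with 10000 or more counts 18.6% of 70 loci and 5.26% of 6309 genes. Among the sparsest features the loci thus stood close to the annotated genes, and at higher totals they were called up more often. The loci were also assembled from the authors' own reads, unlike the Ensembl genes, and matching on totals does not remove that difference in choice. Among the 1472 loci with at least 25 counts over both libraries at 0 μM, a limit that favours the opposite direction, 240 (16.3%) were called up and 89 (6.05%) down, against 7.42% and 7.02% of 14280 features under the same limit.

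**Figure D1:**
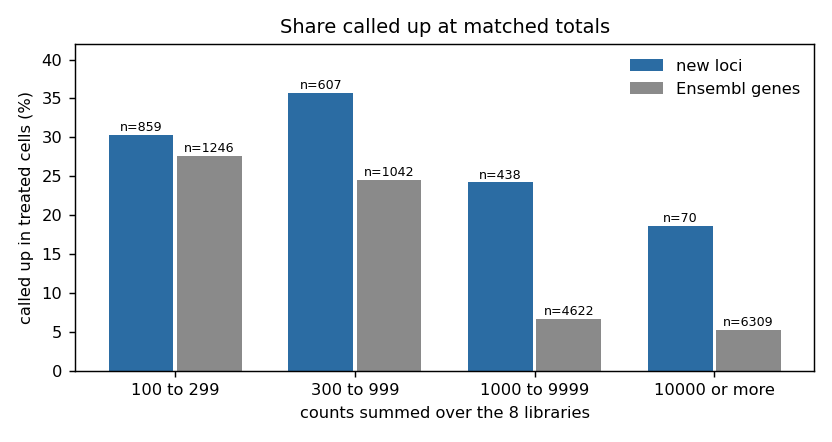
Share of features called up in treated cells (vertical axis, percent) by the counts summed over the 8 libraries (horizontal axis, 4 ranges), for new loci (blue bars) and Ensembl genes (grey bars), with the number of features above each bar. The bars are close in the lowest range, from 100 counts (30.3% and 27.6%) and apart at 10000 or more (18.6% and 5.26%).

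Loci of all annotation classes contributed. Those without a protein hit gave 410 calls up and 62 down of 1338 tested (30.6% and 4.63%), and their median log2 fold change was 0.61. Mouse protein hits gave 142 up and 22 down of 452, with a median of 0.58, and retroelement hits 15 up and 1 down of 44, with a median of 0.73. Hits to other organisms gave 29 up and 4 down of 140, with a median of 0.29. With retroelement text taken from any annotation column, 38 of 87 loci were called up and 1 down.

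**Figure D2:**
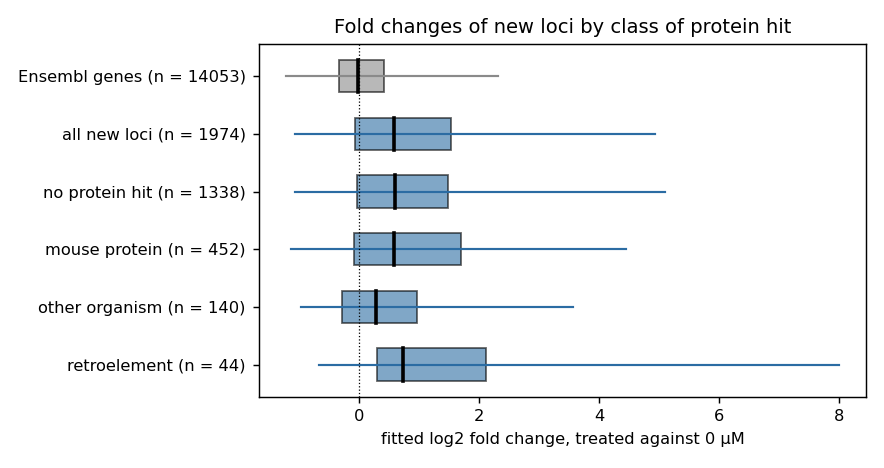
Fitted log2 fold change of treated cells against 0 μM (horizontal axis) for Ensembl genes (grey), all new loci and each class of protein hit (blue), with the number tested. Boxes span the quartiles with the median as a thick line, and thin lines run from the 5th to the 95th percentile; the medians are -0.01 for Ensembl genes and 0.58 for the loci.

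The loci with the most counts, none with a protein hit, were not called against 0 μM over both days. Locus 2902 had 3345 CPM at 0 μM on day 5 and 3689, 4679 and 3314 CPM at 100, 150 and 200 μM, so the groups overlapped on that day. On day 10 it had 2749 CPM at 0 μM and 5776, 8722 and 6484 CPM at the rising doses, all higher than at 0 μM. Its log2 fold change was 0.73 ± 0.27 (SE) with an adjusted p = 0.050 by edgeR, and it was not called. With the 0 μM library of day 5 left out, its log2 fold change became 1.35 and that of locus 2327 became 1.495. Only the 0 μM library of day 10 then remains, so these values restate the contrast of that day. Without the 0 μM library of day 10 instead, the log2 fold change of locus 2327 was 0.13. On day 5 alone, that of locus 2902 was 0.22. Locus 2327 followed a like course, from 1863 CPM at 0 μM and 1912, 2470 and 1789 CPM in treated cells on day 5 to 1261 CPM against 3885, 3559 and 3227 CPM on day 10. In the libraries A-5 and B-4 it stood at 3467 and 3504 CPM, within the range of the treated libraries of day 10. Locus 2330, shown as the next in counts and chosen after its values were seen, lay between 1315 and 1548 CPM at 0 μM and between 1368 and 1937 CPM in treated cells, without a difference beyond the spread (log2 fold change 0.09 ± 0.15, SE, with an edgeR adjusted p = 0.65).

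Among loci without a protein hit that averaged 1 CPM or more, the 3 with the largest fitted log2 fold change had no counts at 0 μM, so their size is given only as a lower bound. Locus 8561, of an implied 15238 bases, had 0 counts in both libraries at 0 μM and 143, 557 and 257 counts at 100, 150 and 200 μM on day 5, then 390, 587 and 707 counts on day 10. That came to 10.3 ± 3.76 CPM (SD, n = 6) in treated cells, at least 135-fold higher than a floor of 3 counts in each library at 0 μM (edgeR adjusted p = 7.6e-06). The untreated libraries held 0 and 4 counts on it, so all 4 libraries without the sterol were near 0. Locus 11439 had 0 counts at 0 μM and 84, 291, 93, 78, 175 and 143 counts in the treated libraries (day 5, then day 10, doses rising), at least 42.8-fold higher (edgeR adjusted p = 1.4e-05). Locus 5239 went from 0 at 0 μM to 18, 131 and 69 counts on day 5 and 89, 463 and 292 counts on day 10, at least 49.4-fold higher (edgeR adjusted p = 3.5e-04). Of the 1974 loci tested 66 had no counts at 0 μM, as had 349 of the 16794 features, while no feature lacked counts in all 6 treated libraries. Such loci reached 100 counts through treated libraries alone, and 0 counts in 2 libraries arise more readily than in 6. These counts are thus a description. The 3 loci were also named for their rise, so their separation is largely set by that choice.

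Locus 1299, also without a protein hit and chosen after its values were seen, combined a large rise with a high level. It had 0.196 CPM at 0 μM on day 5 against 15.7, 32.6 and 25.4 CPM in treated cells, and 0 CPM on day 10 against 70.6, 124.5 and 83.1 CPM. In the untreated libraries it held 1.56 CPM in A-5 but 83.8 CPM in B-4, which lay inside the treated range of day 10. The treated libraries and those at 0 μM did not overlap, and the log2 fold change was 8.62 ± 0.71 (SE, edgeR adjusted p = 1.7e-05).

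Loci with a mouse protein hit included 3 large rises among predicted proteins. Locus 3877 (hit mCG1028293) had 0 counts at 0 μM and 24, 127, 55, 29, 96 and 55 counts in treated cells, at least 18.9-fold higher (edgeR adjusted p = 2.2e-04). For locus 6287 (hit Gm29667) the counts were 3 and 0 at 0 μM and 98, 320, 123, 158, 256 and 306 in treated cells (edgeR adjusted p = 1.4e-05), with 9 and 98 counts in A-5 and B-4. Locus 1294 (hit mCG1041490) had 2 counts in each library at 0 μM and 72, 344, 146, 67, 213 and 192 in treated cells (edgeR adjusted p = 3.5e-05). In each of them every treated library lay above both at 0 μM, which the rule that named them largely sets.

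**Figure D3:**
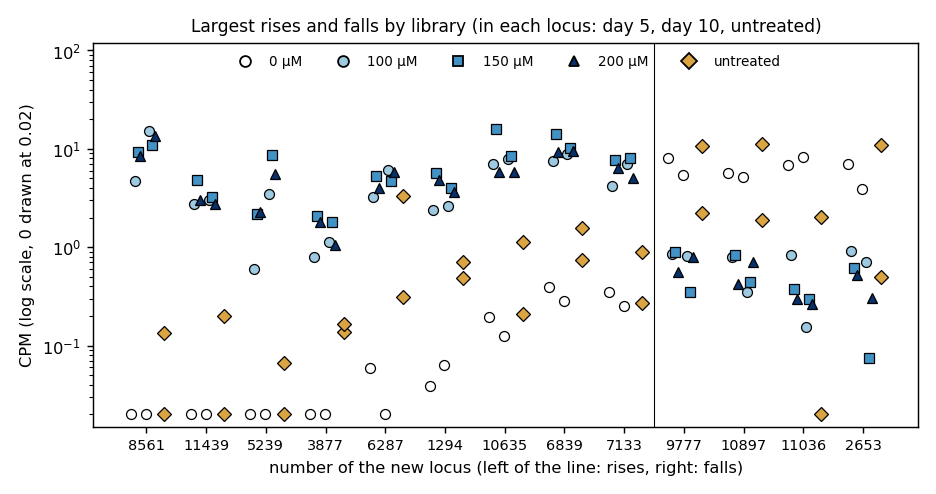
CPM in each library (vertical axis, log scale, 0 drawn at 0.02) for the 9 loci named as rises without a hit or with a mouse or retroelement hit (left of the line) and 4 named as falls (right), named by number on the horizontal axis. Within each locus the points run from day 5 to day 10 to the untreated libraries; symbols give the dose, and at 0 μM loci 8561, 11439, 5239 and 3877 lie at 0 on both days.

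Some hits had a known role in bone or in the surroundings of the cell. Locus 1211 hit osteotesticular protein tyrosine phosphatase, the Ptprv product, a receptor phosphatase known from osteoblasts. It had 52.1 CPM at 0 μM and 114.1, 122.6 and 113.6 CPM at 100, 150 and 200 μM on day 5, and 34.9 CPM against 122.6, 192.2 and 212.4 CPM on day 10. No treated library overlapped with 0 μM, and its log2 fold change was 1.69 ± 0.28 (SE, edgeR adjusted p = 0.0010). The untreated libraries had 86.7 and 88.2 CPM, between both groups. Locus 1452 hit complement factor H, a regulator that shields host cells from complement, and had 5.56 and 8.70 CPM at 0 μM on days 5 and 10 against 12.3 to 16.0 CPM on day 5 and 23.3 to 35.9 CPM on day 10 in treated cells (log2 fold change 1.56 ± 0.19, SE, with an edgeR adjusted p = 2.0e-04). Both loci were chosen after their values were seen.

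The highest loci with a mouse hit stayed under the fold limit. Locus 7819, with a Swiss-Prot hit to the kinase PIM2, had 253.8 and 253.0 CPM at 0 μM and between 287.6 and 330.1 CPM in treated cells, a log2 fold change of 0.32 ± 0.09 (SE, edgeR adjusted p = 0.017) that stayed under the fold limit. Locus 7822 hit cadherin-11, a cell adhesion protein of osteoblasts. It had 176.3 and 184.9 CPM at 0 μM and 183.4 to 228.3 CPM in treated cells, with overlapping groups (edgeR adjusted p = 0.075). The Cdh11 gene, at a mean of 985 CPM, had a log2 fold change of 0.90 ± 0.13 (SE, edgeR adjusted p = 3.7e-04), also under the fold limit. Another locus with this hit, locus 8038, had 0.48.

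Several sets of loci shared the same NR text. For comparison, 30.2% of all loci tested were called up and 4.51% down, against 13.4% and 5.98% of all features. Likeness of their sequences was not analysed here, and where they are alike reads may be divided among them. The 28 loci that hit mCG1041490 gave 26 calls up and none down, with a median log2 fold change of 3.34, or 3.25 with the 2 loci without counts at 0 μM set to their bound. Summed over these loci, the level was 9.53 and 9.14 CPM at 0 μM on days 5 and 10. It was 78.7, 133.0 and 94.2 CPM at 100, 150 and 200 μM on day 5 and 70.7, 77.1 and 70.7 CPM on day 10, so all treated libraries lay far above. The untreated libraries had 16.2 and 15.1 CPM, nearer to 0 μM. No single locus made up the sum: the top one, locus 762, gave 15.5% of the counts in treated cells. None of the 28 carried retroelement text in the Swiss-Prot or Pfam column, but only 292 and 263 of the 1975 loci have any text there.

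The 16 loci that hit mCG1029965 gave 13 calls up and none down, with a median of 2.07 and a summed level of 7.83 and 6.25 CPM at 0 μM against 24.2 to 45.8 CPM in treated cells. For 2 of them the Pfam column named a retroviral envelope protein. For the 5 loci that hit mCG62406, 4 of which were called up, the sum was 1.43 and 2.20 CPM at 0 μM and 14.1 to 29.9 CPM in treated cells. All 4 loci that hit mCG1026173 were called up, from 3.89 and 3.74 CPM at 0 μM to between 10.7 and 23.6 CPM. In these sets, as for mCG1041490, the 150 μM library of day 5 was the highest. Of 20 texts shared by 3 or more loci, the summed level of treated cells lay above both libraries at 0 μM for 12, below both for 2 and overlapped for 6. Taken singly, 41.2% of the loci and 27% of all features lay above both, and 9.73% and 25.7% below both. The lower sets were the 5 loci that hit mCG147627, with 11.02 and 12.47 CPM at 0 μM and 5.77 to 9.58 CPM in treated cells and 1 call down, and the 3 that hit mCG145843, with 8.38 and 8.48 CPM against 6.28 to 7.40 CPM and no call. In the largest set, the 41 loci with the generic text unnamed protein product, the sums were 494.3 and 493.3 CPM at 0 μM and 497.5 to 590.5 CPM in treated cells, with 15 calls up and 3 down. The 5 loci with the hit igE-binding protein-like of the mouse, a text that marks intracisternal A particles, summed to 22.9 and 19.8 CPM at 0 μM and 17.6 to 24.5 CPM in treated cells, and the groups overlapped. Locus 5526 gave 76.2% of that sum in treated cells, and 2 of the 5 loci were called up. For 9 loci the NR, Swiss-Prot or Pfam text named this element, locus 6080 described below being 1 of them. These 9 summed to 27.1 and 24.8 CPM at 0 μM and to between 39.2 and 59.7 CPM in treated cells, without overlap. A-5 and B-4 stood at 30.2 and 36.4 CPM. Of the 9, 5 were called up, against 30.2% of all loci and 13.4% of all features.

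**Figure D4:**
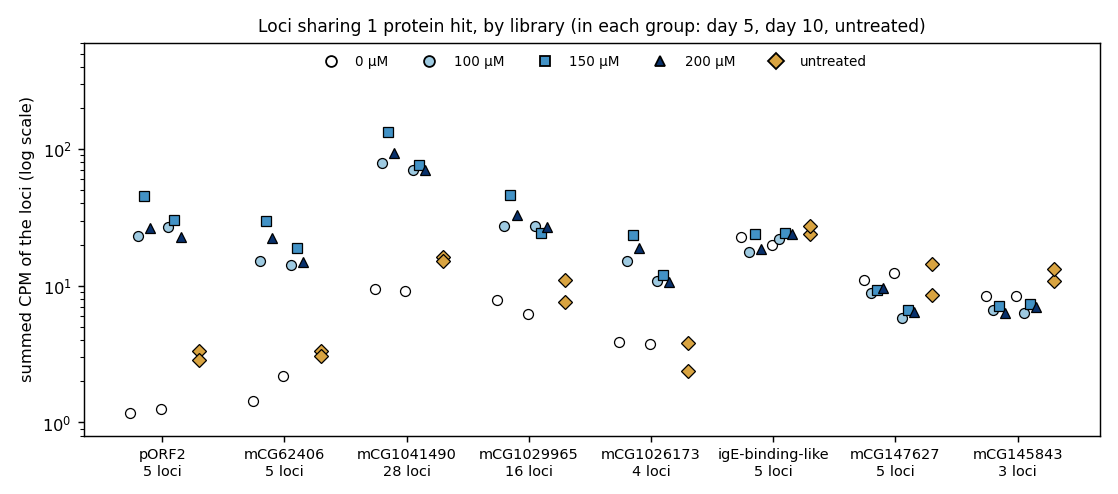
Summed CPM (vertical axis, log scale) of the loci that share 1 protein hit (horizontal axis, with the number of loci) in each of the 10 libraries. Within each set the points run from day 5 to day 10 to the untreated libraries, and symbols give the dose; the 5 left sets lie higher in all 6 treated libraries than at 0 μM, the igE-binding-like set overlaps, and the 2 sets on the right lie lower.

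Of the 44 retroelement hits, 36 carried LINE-1 text, as did 13 of the 15 called up, so the calls mirror the make-up of the class. The share called up was 36.1% of these 36, near the 30.2% of all loci, against 13.4% of all features. The 36 loci of this class with LINE-1 text in any annotation column summed to 56.2 and 61.7 CPM at 0 μM on days 5 and 10 and to between 98.5 and 126.4 CPM in the treated libraries, which all lay above; none was called down, and the median log2 fold change was 0.77. The untreated libraries stood at 58.7 and 74.6 CPM. The 5 envelope loci summed to 110.1 and 116.5 CPM at 0 μM and to between 103.6 and 129.3 CPM in treated cells, so these groups overlapped; 1 was called up and 1 down. Within LINE-1 the hits differed. All 5 loci that hit pORF2 of Mus musculus domesticus were called up, and their sum went from 1.17 and 1.26 CPM at 0 μM to 23.3, 45.2, 26.5, 26.8, 30.1 and 22.7 CPM in treated cells. The 19 loci that hit the Swiss-Prot record of LINE-1 ORF2 gave 3 calls up, with a median of 0.57.

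Among retroelement hits that averaged 1 CPM or more, the 3 largest fitted rises were pORF2 loci, named for the LINE-1 protein that holds the reverse transcriptase. Sparser retroelement loci had larger fitted values that depend on the prior count; the 95th percentile of the class was 7.995. Locus 10635 had 10 and 4 counts at 0 μM and 211, 966, 179, 204, 457 and 302 counts in treated cells, a log2 fold change of 5.69 ± 0.56 (SE, edgeR adjusted p = 5.1e-05). Locus 6839 had 0.391 and 0.283 CPM at 0 μM against 9.93 ± 2.26 CPM (SD, n = 6) in treated cells, a log2 fold change of 4.85 ± 0.33 (SE, edgeR adjusted p = 6.3e-06). For locus 7133 the levels were 0.352 and 0.251 CPM against 6.39 ± 1.53 CPM (SD, n = 6), with a log2 fold change of 4.35. The only retroelement hit called down was locus 11167, an envelope protein related to murine leukaemia virus. It had 18.9 and 21.3 CPM at 0 μM and 6.53 to 10.3 CPM in treated cells (log2 fold change -1.35 ± 0.15, SE, with an edgeR adjusted p = 8.7e-05), while A-5 had 21.1 and B-4 8.86 CPM.

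The highest retroelement hits did not follow the pORF2 loci. Locus 1167, an envelope polyprotein, had 76.6 and 78.0 CPM at 0 μM and 82.8 to 106.2 CPM in treated cells, a log2 fold change of 0.31 ± 0.10 (SE) under the fold limit. Locus 8401, a LINE-1 ORF2 hit, had 17.8 and 22.0 CPM at 0 μM and 15.4 to 37.5 CPM in treated cells, with overlapping groups (edgeR adjusted p = 0.24).

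Genes that silence retroelements were listed for comparison, and of 23 tested none was called up and 3 down. Over all features 13.4% were called up and 5.98% down. Dnmt1, which maintains DNA methylation, fell from a mean of 259.8 CPM at 0 μM to 97.7 ± 15.9 CPM (SD, n = 6), Uhrf1, which recruits it to newly copied DNA, from 224.8 to 59.7 ± 20.6 CPM (SD, n = 6), and Hells, a chromatin remodeller needed for methylation of repeats, from 155.5 to 59.2 ± 17.5 CPM (SD, n = 6). Summed over the list, the level was 2511 and 2516 CPM at 0 μM and 1666 to 1929 CPM in treated cells. Trim28 and Setdb1 had log2 fold changes of -0.50 and -0.03, and the median over the list was -0.30. Not all genes fell: Zfp809 and Atf7ip rose under the fold limit, with log2 fold changes of 0.76 and 0.51 (edgeR adjusted p = 2.1e-04 and 0.0016). Of 11 tested genes that sense foreign RNA and DNA, Samhd1, a dNTP hydrolase that restricts reverse transcription, was called up, Zbp1 and Tmem173 were called down, and 8 were not called. Whether these genes and the loci moved for a shared reason was not tested.

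Hits to other organisms included the rat protein text ORF7. Locus 7271 had 68.8 and 72.8 CPM at 0 μM and 145.4, 116.7 and 115.6 CPM on day 5 and 164.6, 168.2 and 174.2 CPM on day 10 in treated cells, with a log2 fold change of 1.04 ± 0.12 (SE, edgeR adjusted p = 1.4e-04); the untreated libraries, at 52.5 and 50.4 CPM, lay below both at 0 μM. Locus 6080 (hit igE-binding protein-like of a mole rat) had 0.294 and 0.251 CPM at 0 μM and 3.57 to 8.07 CPM in treated cells (log2 fold change 4.17 ± 0.40, SE, with an edgeR adjusted p = 4.5e-05). The rises of locus 4435 (hit TATDN2, 1 and 2 counts at 0 μM, 30 to 174 in treated cells) and locus 31 (hit ORF1 of the rat, 4 and 0 counts at 0 μM, 21 to 117 in treated cells) were called at adjusted p = 3.4e-04 and 2.2e-04 by edgeR. Locus 1225, a hit to the histone chaperone NAP1L1, had 115.9 and 125.1 CPM at 0 μM and 50.4 to 72.2 CPM in treated cells, just under the fold limit with a log2 fold change of -0.94 ± 0.11 (SE).

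Falls were fewer, and in those named the 6 treated libraries all lay below both at 0 μM. The rule named only loci lower than the same-day library at 0 μM in all 6, so this separation is largely set by the choice. Locus 11036, whose Swiss-Prot hit is the protease inhibitor Serpina3g, had 6.79 and 8.20 CPM at 0 μM and between 0.156 and 0.826 CPM in treated cells, a log2 fold change of -4.42 ± 0.36 (SE, edgeR adjusted p = 1.6e-05). A-5 had 2.05 CPM and B-4 had 0. Locus 2653, with a hit to Fv1, a restriction factor against murine leukaemia virus that itself derives from a retroviral gag gene, had 6.97 and 3.90 CPM at 0 μM and 0.0744 to 0.925 CPM in treated cells (log2 fold change -3.46 ± 0.45, SE, with an edgeR adjusted p = 2.4e-04). The untreated libraries differed on it, with 10.9 CPM in A-5 and 0.504 CPM in B-4. Another locus with an Fv1 hit, locus 1523, averaged 40.5 CPM and had a log2 fold change of 0.30. The Fv1 gene had -0.67, and neither was called. Loci 9777 and 10897, without a protein hit, had log2 fold changes of -3.21 ± 0.29 and -3.17 ± 0.29 (SE), from 8.02 and 5.37 CPM, and from 5.66 and 5.22 CPM, at 0 μM to at most 0.891 and 0.841 CPM in treated cells. Smaller falls were called for loci 9540 (hit TAF13, log2 fold change -1.43) and 6655 (hit rCG56124 of the rat, -1.28).

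Some loci share their NR text with an annotated gene, and 31 such pairs could be tested. The locus and the gene had fold changes of the same sign in 27 of 31, with a Pearson r of 0.60 across the pairs, given as a description since both sit in the same libraries and may share reads. With pairs made by the symbol of the Swiss-Prot hit instead, r was 0.28 over 150 pairs and the sign was the same in 112. Of the 13 loci called up among these, the gene was called up for 1, not called for 9 and called down for 3. Among the 3 were locus 8195 (log2 fold change 2.34 beside -2.25 for Gapdh) and locus 10027 (2.86 beside -2.68 for Tgtp1). Other loci paired with Gapdh, which averaged 27.9 CPM, had -0.24 (locus 8905), 0.12 (locus 4098) and -1.16 (locus 3393). Locus 9332 hit farnesyl pyrophosphate synthase, an enzyme of the cholesterol pathway, and had 14.5 and 14.2 CPM at 0 μM and 2.44 to 5.31 CPM in treated cells. Its log2 fold change of -1.96 ± 0.23 (SE) stood beside -2.08 ± 0.18 (SE) for Fdps itself. Locus 4925, a hit to stathmin, which destabilizes microtubules, gave -1.99 ± 0.39 (SE) on the log2 scale beside -1.34 ± 0.20 (SE) for Stmn1. Both of these pairs were chosen after their values were seen. Of the 4 pairs with the highest locus level, locus 11587 had a log2 fold change of 0.75 ± 0.17 (SE) beside 0.14 for Zfp825, locus 8488 had 0.43 ± 0.09 (SE) beside 0.07 for Tmed2, locus 3002 had -0.10 beside 0.00 for Rps6, and locus 1189 had -0.08 beside -0.14 for Tulp4.

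The loci were called on both days together, so the size of their change on each day is a description. Among called loci the median log2 fold change was 2.41 on day 5 and 2.52 on day 10 for those called up. For those called down it was -1.39 and -1.73. The change was larger on day 10 for 354 of the 596 called up and 60 of the 89 called down. Over all 1974 loci the medians were 0.51 on day 5 and 0.66 on day 10. Folds on both days had the same sign for 1592 of 1974 loci, with r = 0.75 across loci, a description over loci that share the libraries of each day. With log2 CPM (prior count 2), 507 loci (25.7%) were over 2-fold higher at all 3 doses on day 5, against 11.4% of all features, and 559 (28.3%) on day 10, against 13.1%. Of these, 378 were higher on both days, which is 74.6% of the first and 67.6% of the second list, close to 71.0% and 61.7% over all features. Lower by as much were 52 loci (2.63%) on day 5, against 3.86% of all features, and 82 (4.15%) on day 10, against 5.49%.

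**Figure D5:**
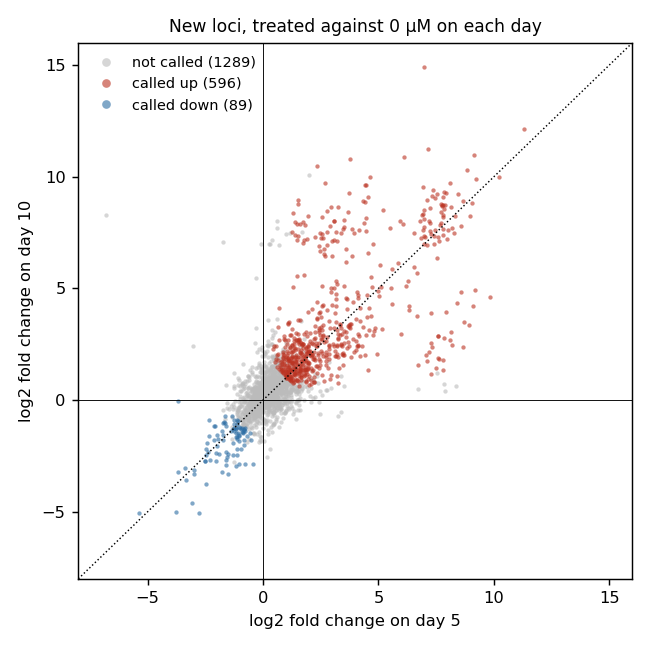
Fitted log2 fold change of treated cells against 0 μM on day 5 (horizontal axis) and day 10 (vertical axis) for 1974 loci, with 596 called up in red, 89 called down in blue and 1289 not called in grey; the dotted line marks equal change. Points above about 6 on an axis are loci with 0 or nearly 0 counts at 0 μM on that day, and the point lowest on day 5 is locus 3013, with 0, 0 and 1 counts in treated cells; such fitted values depend on the prior count.

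Within treated cells 23 loci were higher on day 10 than on day 5 and 7 were lower, by edgeR in a model of 4 groups with the same limits. That is 1.17% and 0.355% of the loci, against 0.863% and 0.161% of all features. Of the 23, 16 had no protein hit, and 18 were also called up against 0 μM. These calls rested on the 200 μM libraries: without the one of day 5 no locus was called, and without the one of day 10 there was 1 call. With each dose on both days as a block, in the treated libraries alone, 38 were called up and 7 down. Locus 7199 had 0.132, 1.12 and 0.262 CPM on day 5 and 4.10, 4.76 and 6.91 CPM on day 10 at rising doses, a log2 change of 3.23 ± 0.58 (SE, edgeR adjusted p = 0.025). Locus 54 went from 0.396, 1.86 and 0.787 CPM to 5.97, 7.89 and 10.1 CPM (log2 change 2.90 ± 0.45, SE), and locus 9882 from 0.528, 0.578 and 0.164 CPM to 2.03, 3.11 and 4.09 CPM (log2 change 2.81 ± 0.43, SE). Locus 8682, the longest, had 27.2, 47.4 and 24.3 CPM on day 5 and 75.1, 84.1 and 113.3 CPM on day 10 in treated cells, against 15.8 and 8.51 CPM at 0 μM; it was chosen after its values were seen. In these 4 loci, chosen for a rise between days or after their values were seen, no treated library of day 5 reached one of day 10.

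Of the 7 falls with time, 3 were on loci also called up against 0 μM, and the 3 largest named here were among them. Locus 2368 (hit mCG62406) had 2.81, 3.27 and 3.84 CPM on day 5 and 0.936, 1.52 and 0.917 CPM on day 10, against 0.294 and 0.377 CPM at 0 μM (log2 change -1.54 ± 0.28, SE, edgeR adjusted p = 0.027). Locus 9653, a pORF2 hit, went from 2.94, 4.72 and 3.28 CPM to 1.44, 1.84 and 1.51 CPM (log2 change -1.19 ± 0.26, SE), and locus 9980, without a hit, from 2.54, 3.65 and 2.95 CPM to 1.29, 1.49 and 1.32 CPM (log2 change -1.16 ± 0.24, SE). Loci 9653 and 9980 lost the call without any of 5 of the 6 treated libraries, the exception being 100 μM on day 5, and locus 2368 lost it without any of 4 (150 and 200 μM of day 5, 100 and 200 μM of day 10), with adjusted p between 0.051 and 0.147 by edgeR.

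Whether the response itself differed between days was tested as an interaction, with 1 library at 0 μM on each day. No locus was called by edgeR (0 of 1974, against 0.0119% of all features), with 185 loci (9.37%, against 8.31% of all features) at an unadjusted p under 0.05 and a smallest adjusted p = 0.19; DESeq2 called 5. The 3 loci with the smallest p were decided by 0 counts in a library at 0 μM. Locus 3013 (hit mCG1028680) had 65 counts at 0 μM on day 5 and 0, 0 and 1 in treated cells, but 0 at 0 μM on day 10 and 43, 47 and 18 in treated cells. Locus 9444 (hit to the ubiquitin ligase Midline-1) had 52 counts at 0 μM on day 5 and 0 on day 10, with 6 to 26 counts in treated cells, and locus 4364 had 21 and 0 counts at 0 μM and 31 to 86 in treated cells.

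No trend with dose from 100 to 200 μM was called within treated cells by edgeR (0 of 1974 loci, against 0.00595% of all features), with 56 loci (2.84%, against 2.36% of all features) at an unadjusted p under 0.05 and a smallest adjusted p = 0.998; DESeq2 called 1. Locus 7558, a hit to a protein phosphatase 1 subunit, had 11.4, 11.2 and 25.1 CPM on day 5 and 14.0, 32.1 and 38.3 CPM on day 10 at 100, 150 and 200 μM, a slope of 1.28 on the log2 scale per 100 μM (standard error 0.25). The libraries at 0 μM, with 38.2 and 12.2 CPM, lay within this range. Locus 12165, a hit to chromobox protein 3, had 6.21, 27.1 and 22.2 CPM, then 5.34, 13.9 and 24.2 CPM, against 40.2 and 22.4 CPM at 0 μM, and locus 11562 had 4, 41, 31, 2, 27 and 33 counts in treated cells and 27 and 20 at 0 μM.

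The untreated libraries, whose labels give no day, were set beside those at 0 μM on the called loci. These loci were chosen for values at 0 μM apart from the treated ones, so a further library tends to lie on the treated side. The counts are thus a description, and no such count is given over all features. Of the 596 loci called up, A-5 lay above both libraries at 0 μM for 365 and below both for 92. B-4 lay above for 454 and below for 67. Within the range of the treated libraries fell 110 loci for A-5 and 163 for B-4. With both untreated libraries in place of 0 μM, 228 of the 596 were still called up, 4 were called down, and 30 of the 89 were still called down. Of the 89, A-5 lay above both libraries at 0 μM for 30 and below both for 44, and B-4 below both for 79. The call was lost with these controls for loci 1299 (log2 fold change 0.48), 1452 (0.20), 1211 (0.80), 6287 (1.47), 7199 (1.12), 54 (3.39), 9882 (3.405), 2368 (1.94), 9980 (1.18), 4364 (1.24), 11036 (-1.37), 11167 (-0.83), 9540 (-0.29) and 6655 (-0.73) and for locus 10983, which has 0 counts at 0 μM, and the fall of locus 4925 turned to 0.49. Loci 8561, 11439, 5239, 3877 and 1294 and the pORF2 loci 10635, 6839 and 7133 were called up with either set of controls. Without the 0 μM library of day 10 the calls were lost for loci 8682 (log2 fold change 1.06), 4925 (-1.52), 6655 (-1.07), 7271 (0.86), 7199 (3.74) and 9882 (1.46), and that of locus 10983 was lost without either library at 0 μM.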

How the data were processed

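Counts of reads and FPKM values per gene or locus for 10 libraries were deposited by the authors in 1 table. Submitters' processing notes name HISAT2 2.0.4 and GATK 3.2-2 without their roles; the assembler, counter, genome build and annotation are not given in the sources used here, nor is any use of strand. The authors' edgeR comparisons of single libraries in that table were not used. The deposited counts carry no normalization. The FPKM values deposited by the authors are scaled to length and library size.

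Counts were analysed in R 4.3.3 with edgeR 4.0.16 (TMM, filterByExpr, quasi-likelihood test) and DESeq2 1.42.0 as an alternative. Models were fitted over all 16794 features, with Benjamini-Hochberg adjustment over all of them. The common biological coefficient of variation was 0.166. Fits were tested on simulated data. Treated cells were compared with 0 μM with day as covariate; a model of 4 groups gave days and their difference, and a slope per 100 μM gave dose. CPM of the untreated libraries used library totals alone.

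Loci were sorted into classes by a text pattern on the NR hit. The pattern took 3 host proteins (Midline-1 and a baculoviral repeat protein) as retroelements, and these were moved to the mouse proteins after the data were seen. Named by rule were, per class, the 2 highest loci and the 3 largest rises and 2 largest falls called, averaging 1 CPM or more and moving alike in all 6 treated libraries; over all loci, the 3 largest rises and falls between days, the 3 smallest p for a difference between days and for dose, 2 loci on each side of the limit of 100 counts, and the 4 highest loci that share text with a gene. A further 10 loci were chosen after their values were seen. The members, lists and tests were chosen with earlier results of these data known.

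Alternatives were DESeq2, other normalizations and filters, glmTreat, no fold limit, the untreated libraries as controls, no day covariate, each library left out in turn, and others added after the data were seen (retroelement text in any column, pairs by Swiss-Prot symbol, at least 25 counts at 0 μM, dose as a block between days). Lists covered the markers and pathways described, with the 12 long noncoding RNAs. Replicate numbers do not pair the groups.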

Additional observations from a re-analysis of the deposited data

Results flagged for a closer look

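In 6 treated libraries a value was set apart where its gap to the nearest other exceeded 0.625 of the range (Dixon's limit), which chance exceeds in about 1 in 20 groups; 62 groups were examined. The 150 μM library of day 5 stood above the others for locus 11439 (4.80 CPM, median of the 6 libraries 3.05), locus 10635 (15.9, median 7.46), locus 4435 (2.87, median 1.13), locus 6080 (8.07, median 4.48) and locus 1837 (10.1, median 5.32), and for the share of counts on hits to other organisms (0.113%, median 0.103%). The 100 μM library of day 5 stood above the others for locus 11036 (0.826 CPM, median 0.296) and for locus 2395, just under the limit of 100 counts (0.528 CPM, median 0.296).

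For 4 of the loci named in the report, and for locus 2395 just outside the limit of 100 counts, every treated library moved one way against 0 μM on day 5 and the other way on day 10, with fitted differences between the days (log2) of 15.10 for locus 3013, 8.82 for locus 9444, 2.48 for locus 7558, 0.52 for locus 2330 and -3.45 for locus 2395. None was called in the test of that difference, and the values of loci 3013 and 9444 rest on 0 counts at 0 μM on day 10. The untreated libraries, which no comparison of the report uses as its main control, had shares of counts on the loci of 2.04% (A-5) and 2.58% (B-4), above 1.70% and 1.48% at 0 μM.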

How the results depend on the processing

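Each library at 0 μM stands alone for its day, and loci near the floor of 3 counts carry little information. The calls in treated cells (596 up, 89 down) became 244 and 46 with at least 10 counts in every library, which tests 1170 loci, 321 and 29 with glmTreat, 281 up with A-5 and B-4 as the controls, 392 up with them added, and 240 up with at least 25 counts at 0 μM; without a fold limit 148 were down. Leaving out each library in turn gave 430 to 588 up and 57 to 92 down; the lowest came without 0 μM on day 10. For day 10 against day 5 (23 up, 7 down), library totals gave 16 down, a filter of 1 count 52 and 24, at least 10 counts in every library 6 up, DESeq2 40 and 12, and dose as a block in the treated libraries, added after the data were seen, 38 up. Leaving out a library gave 0 to 32 up and 0 to 8 down: 0 and 0 without 200 μM day 5, 1 and 0 without 200 μM day 10, and 4 down without 150 μM day 5 or 100 μM day 10, 2 without 150 μM day 10. For a difference between days (0 calls) the filter of 1 count gave 12 and DESeq2 5, and leaving out a treated library gave 0 to 1, the 1 call without 150 μM day 10; it could not be estimated without a library at 0 μM. For dose (0 calls) the filter gave 18, DESeq2 1, and leaving out a library 0 to 1, the 1 call without 150 μM day 5. The correlation of loci with genes of the same text was 0.63 on log2 CPM and 0.28 over 150 pairs made by Swiss-Prot symbol. The retroelement class held 47 loci by the pattern as written and 87 by text in any column, of which 43.7% were called up against 34.1%. The cause of these changes was not tested beyond the number of loci or libraries left.

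Of the fold changes of named loci over all alternatives, 1006 kept direction and side of the limits, 61 lost the call, 13 gained it and 23 changed sign. With A-5 and B-4 as the controls the log2 fold change was -0.25 for locus 2327, -0.13 for 7819, -0.0639 for 7822, -0.35 for 1167, 0.0185 for 1225, 7.22 for 3013, 0.0882 for 9444, 1.98 for 12165, 0.17 for 3002, -0.97 for 2330 and 0.49 for 4925. With them added it was -0.0540 for 1167, 0.44 for 3013, 0.0340 for 3002 and -0.52 for 2330. With each library left out in turn it ran from -6.83 (without 0 μM day 10) to 8.25 (without 0 μM day 5) for 3013, -1.76 to 7.02 for 9444 and -1.28 to 1.21 for 7558 with the same libraries left out, and from -0.54 (without 0 μM day 5) to 0.20 (without 0 μM day 10) for 11562, -0.26 to 0.0518 for 3002 and, in the opposite order, -0.16 to 0.37 for 2330. For 11562 it was also above 0 without 100 μM day 5 (0.03) or day 10 (0.04). Replicate numbers only follow the order of listing; with dose as the replicate block, the log2 change between days of the 6 loci named for it ranged from -1.56 to 3.48 and each kept its call.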
